A study of Homo sapiens with 8 samples.

Results

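The array design carried 103 probes for genes named ARHGAP or ARHGEF, among 50599 probes in all. They were picked by gene name and not by measured signal, though the name rule was chosen with earlier results of these data known. They measured 58 genes, of which 34 encode RhoGAPs, with 63 probes, and 24 encode RhoGEFs, with 40 probes. A single probe stood for 26 of these genes and 2 to 4 probes for the other 32, and probes of the same gene were kept apart throughout. All 58 names are current RefSeq gene symbols.

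RhoGAPs and RhoGEFs control small GTPases that act as switches for the actin cytoskeleton, and thereby for cell shape, adhesion, migration and the contractile ring of dividing cells. RhoGEFs (guanine nucleotide exchange factors) load these GTPases with GTP and switch them on, whereas RhoGAPs (GTPase-activating proteins) speed up the hydrolysis of GTP and switch them off. Members of both families differ in the GTPase they act on and in the domains that place them at membranes, microtubules or adhesion sites.

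The study asked how the RNA-binding proteins TIA1 and TIAR change the RNAs of cells in culture, beside the RNA-binding protein HuR and GFP alone. The cells were FT293 cells, human embryonic kidney HEK293 cells with the Flp-In T-REx system, in which a transgene at a single genomic site is switched on by tetracycline. Of the 4 isogenic lines, the control line expressed GFP, and the others expressed GFP-HuR, GFP-TIA1 and GFP-TIAR. All were given tetracycline, and total RNA was taken on day 3 after its addition. Each line was measured on 2 one-colour arrays from independent biological replicates, so that the number of arrays limits the precision. Each line is 1 isogenic line, and effects of its derivation cannot be told apart from those of the protein it expresses.

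Signals are given on the log2 scale relative to the 75th percentile of all probes on the same array, so that a difference of 1 is a 2-fold change, and levels of different probes are not comparable. A probe was called higher or lower when its level differed at least 2-fold and the limma adjusted p was under 0.05, in a fit across every probe well above background on both replicates of at least 1 line in the comparison, and SE stands for the standard error of a log2 fold change. On the 7 arrays other than GFP 1, between 53.2% and 58.5% of all probes and 79 to 86 of the 103 RhoGAP and RhoGEF probes were well above background. GFP 1 stood apart, with 86% of all probes and 97 of these 103 well above background, and with a median local background of 82 units against 36 to 41.5 on the others. Of markers of HEK293 cells, 5 of 6 genes had a probe well above background on all 7 arrays other than GFP 1, as did 2 of 4 leukocyte genes, 2 of 3 endothelial genes and 1 of 4 fibroblast genes, and the part of such signals in the results was not tested. A TIAL1 probe, for the gene of TIAR, read 4.89 and 5.01 on the TIAR arrays and 1.65 to 2.53 on the other arrays, while the other TIAL1 probe read -4.10 and -3.83 on the TIAR arrays and -4.34 to -3.44 elsewhere. The TIA1 probes read lower on the TIA1 arrays (-1.24 to -0.92) than on the GFP and HuR arrays (-0.72 to 0.20), and the ELAVL1 probe, for HuR, read 0.35 and 0.43 on the HuR arrays and 0.94 and 1.09 on the GFP arrays. Whether those probes lie in the part of the RNA that the transgenes carry is not known here, so the TIA1 and HuR arrays are named as labelled. The labels of TIA1 2 conflict, since its source name reads GFP-TIA2 while its title, description and genotype read GFP-TIA1, by which it was grouped.

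In all, 86 of the 103 probes, for 52 genes, were tested in at least 1 comparison, and 78 were well above background on all 8 arrays. Of the 17 untested probes, 6 were well above background on no array, 8 on GFP 1 alone and 3 on other arrays that did not make up a line. The genes left without a tested probe were ARHGAP6, ARHGAP15, ARHGAP25, ARHGAP36, ARHGEF33 and ARHGEF38.

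In TIA1-expressing cells compared with HuR-expressing cells, 8 of 85 tested probes were called, for 8 genes, 4 higher and 4 lower. This is 9.41% of the members, where 13.4% of all 28739 tested probes were called (8.59% higher and 4.84% lower). In TIAR-expressing cells compared with HuR-expressing cells, 7 of 85 were called, 2 higher and 5 lower, or 8.24% where 10.1% of all 29096 tested probes were called (7.15% higher and 2.93% lower). The median absolute log2 fold change of the members was 0.34 with TIA1 and 0.33 with TIAR, beside 0.39 and 0.34 over all tested probes. Within 1.5-fold of the HuR level lay 62 and 65 of the 85 member probes. The 2 comparisons share the HuR arrays, so their values are given side by side. The share of all probes within 1.5-fold is not given here, but their median absolute changes were also small. Most member probes thus stayed near their level in HuR-expressing cells, which was not particular to them. The called members included both RhoGAPs and RhoGEFs. With normexp background correction the calls left were ARHGAP4, ARHGAP18 and ARHGAP22 for TIA1 and ARHGAP4 and ARHGAP22 for TIAR, and with the authors' values ARHGAP4, ARHGAP11A, ARHGAP18 and ARHGAP22 for TIA1 and ARHGAP4 and ARHGAP11A for TIAR. Without HuR 1 or without HuR 2, the TIAR call left was that of ARHGEF4 probe 2.

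**Figure D1:**
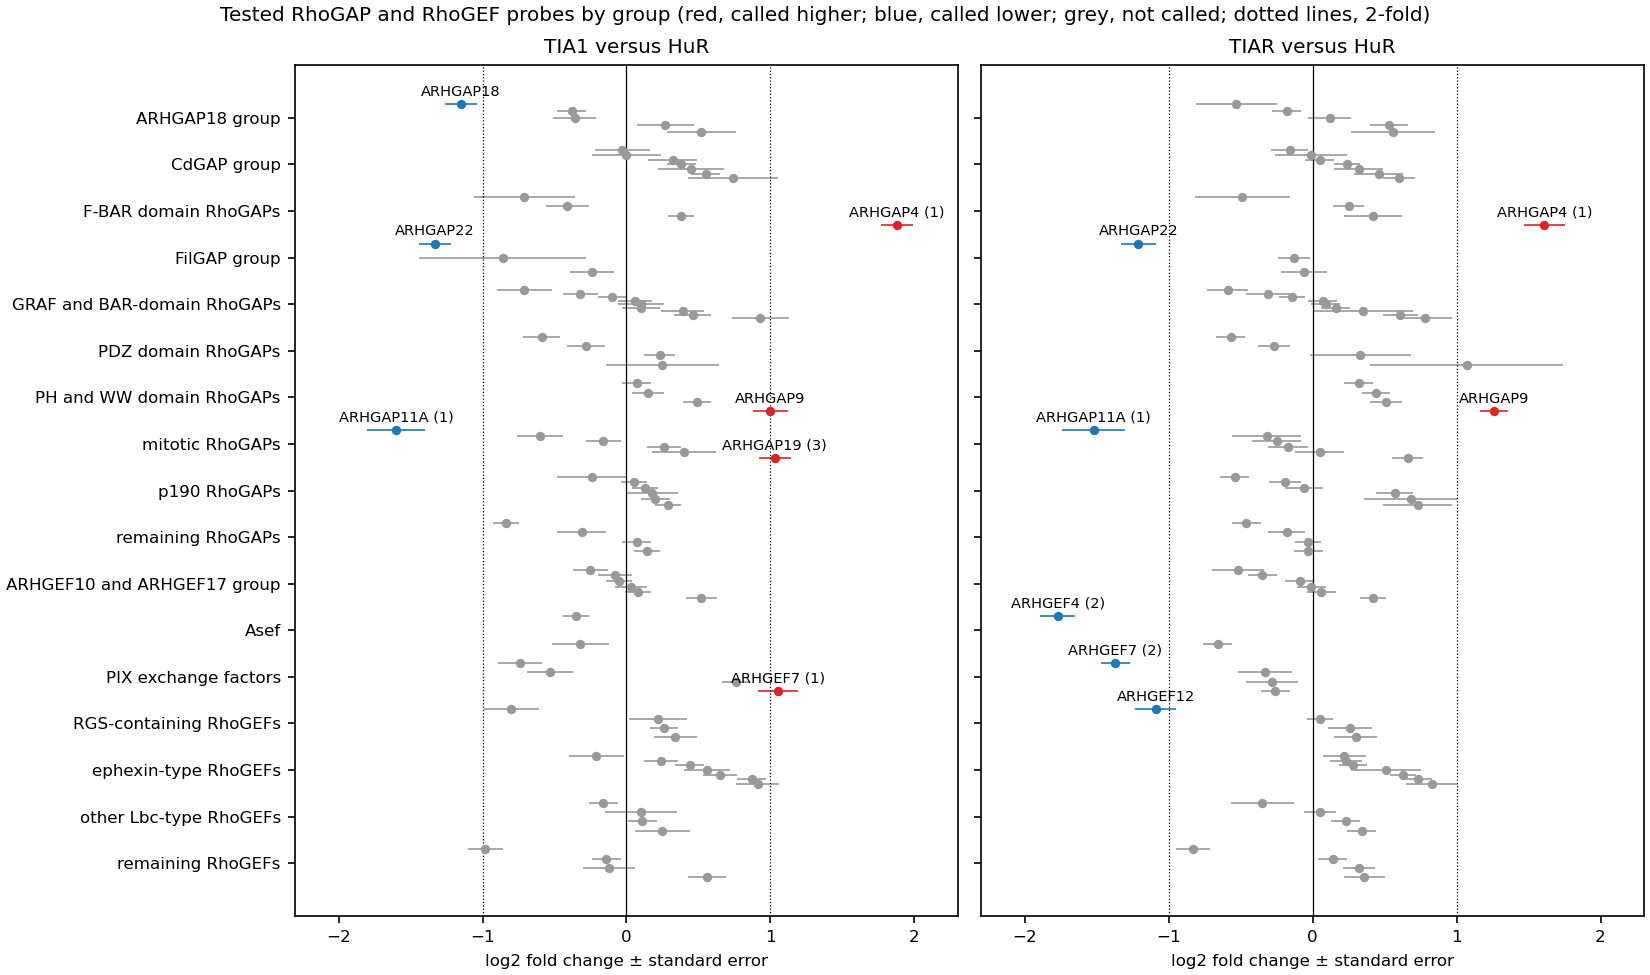
Log2 fold change with its standard error (horizontal axis) of the tested RhoGAP and RhoGEF probes, leaving out those of 1 gene, in TIA1-expressing (left) and TIAR-expressing (right) cells against HuR-expressing cells, by group of related genes. Coloured probes passed both thresholds, numbers in parentheses give the order of a gene's probes along hg19, and the probes called lie at -1.60 to 1.88 on the left and -1.77 to 1.61 on the right.

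Among the RhoGAPs, the largest increase was that of ARHGAP4, which has an F-BAR domain that binds curved membranes. Its probe 1 (chrX:153172835-153172894, minus strand) read -1.03 and -0.71 on the GFP arrays, -0.23 and -0.21 on the HuR arrays, 1.56 and 1.77 on the TIA1 arrays, and 1.24 and 1.55 on the TIAR arrays. All 4 TIA1 and TIAR arrays lay above all 4 GFP and HuR arrays, with a gap of 1.45. Compared with HuR, the log2 fold change was 1.88 (SE 0.11, limma adjusted p = 0.0025) in TIA1-expressing cells and 1.61 (SE 0.14, adjusted p = 0.0063) in TIAR-expressing cells. Probe 2, which starts 134 bases further along the chromosome, changed less, as described with the probes of one gene.

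ARHGAP9, a RhoGAP with PH and WW domains best known from blood cells, was also higher. Its probe (chr12:57866163-57866222, minus strand) read -4.20 and -4.17 on the HuR arrays, -3.29 and -3.08 on the TIA1 arrays, and -2.98 and -2.88 on the TIAR arrays. The GFP arrays disagreed, at -3.12 and -4.32, with 1 on either side of the HuR level and both below the TIAR arrays. The log2 fold change against HuR was 1.00 (SE 0.12, limma adjusted p = 0.0065) for TIA1 and 1.26 (0.10, adjusted p = 0.0056) for TIAR. The TIA1 value sat on the threshold of 2-fold, and both calls were lost without either HuR array.

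ARHGAP22, which acts on Rac and is related to the filamin-binding FilGAP, moved the other way. Its probe (chr10:49654197-49654256, minus strand) read 2.50 and 2.76 on the GFP arrays, 2.85 and 2.73 on the HuR arrays, 1.40 and 1.51 on the TIA1 arrays, and 1.50 and 1.67 on the TIAR arrays. The 4 TIA1 and TIAR arrays all lay below the other 4, with a gap of 0.84. The log2 fold change against HuR was -1.33 (SE 0.11, limma adjusted p = 0.0034) for TIA1 and -1.21 (0.12, adjusted p = 0.0074) for TIAR.

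ARHGAP11A, a GAP for RhoA that is made in proliferating cells and takes part in mitosis, fell in both lines by its probe 1 (chr15:32928084-32928143, plus strand). That probe read -0.73 and -2.35 on the GFP arrays, -2.64 and -2.13 on the HuR arrays, -3.97 and -4.01 on the TIA1 arrays, and -3.75 and -4.06 on the TIAR arrays. Again all TIA1 and TIAR arrays lay below all others, with a gap of 1.11, although the GFP arrays were far apart. The log2 fold change was -1.60 (SE 0.20, limma adjusted p = 0.0074) for TIA1 and -1.52 (0.22, adjusted p = 0.015) for TIAR. A related gene, ARHGAP11B, could share signal with it, which was not tested. The ARHGAP11B probe, on chromosome 15 from 30927761 to 30927820, read -0.54 to -0.52 on the HuR arrays and -0.86 to -0.54 on the TIA1 and TIAR arrays and was not called.

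A pair of RhoGAPs was called in the TIA1 comparison and not in the TIAR comparison. ARHGAP18, which acts on RhoA (chr6:129898672-129898731, minus strand), read -1.11 and -1.18 on the HuR arrays, -2.37 and -2.21 on the TIA1 arrays, and -1.29 and -2.06 on the TIAR arrays. Its log2 fold change was -1.15 (SE 0.11, limma adjusted p = 0.0044) for TIA1 and -0.53 (0.28, adjusted p = 0.22) for TIAR, whose arrays disagreed. Both GFP arrays, at -2.16 and -1.82, were also below the HuR arrays. ARHGAP19, another GAP for RhoA in mitosis, was called through its probe 3 (chr10:99019170-99019229, minus strand), which read -0.24 and -0.41 on the HuR arrays, 0.76 and 0.66 on the TIA1 arrays and 0.37 and 0.30 on the TIAR arrays. The log2 fold change was 1.03 (SE 0.11, limma adjusted p = 0.0057) for TIA1 and 0.66 (0.11, adjusted p = 0.021) for TIAR, the latter under 2-fold. The GFP arrays read 0.54 and 0.45, so that the HuR arrays were below all 6 others. The call was lost without TIA1 1 or without HuR 2. The direct comparison of TIAR with TIA1 called neither gene. Its log2 fold changes were 0.61 (limma adjusted p = 0.28) for ARHGAP18 and -0.38 (adjusted p = 0.15) for ARHGAP19 probe 3. ARHGAP19 probes 1 and 2, well above background on every array, were not called. Their log2 fold changes against HuR were 0.26 and 0.40 with TIA1 and -0.32 and 0.05 with TIAR.

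Among the RhoGEF probes tested between the TIA lines, the largest differences were in ARHGEF7, a PIX gene. ARHGEF7, or beta-PIX, loads Rac and Cdc42 with GTP and binds the PAK kinases, and its 3 probes on chromosome 13 were each called in 1 comparison. Probe 1 (chr13:111932964-111933023) read -1.17 and -0.99 on the GFP arrays, -1.94 and -1.97 on the HuR arrays, -1.07 and -0.74 on the TIA1 arrays, and -2.47 and -2.01 on the TIAR arrays. It was higher than in HuR-expressing cells with TIA1, by 1.05 (SE 0.14, limma adjusted p = 0.0091), and differed by -0.28 (0.18, adjusted p = 0.30) with TIAR. Probe 3 (chr13:111957595-111957654) read 1.45 and 2.00 on the GFP arrays, 1.64 and 1.73 on the HuR arrays, 2.46 and 2.42 on the TIA1 arrays, and 1.45 and 1.40 on the TIAR arrays. Compared with HuR its log2 fold change was 0.76 (limma adjusted p = 0.0078), under 2-fold, with TIA1 and -0.26 (adjusted p = 0.12) with TIAR. On both probes the TIA1 arrays were the higher of the pair of TIA lines, and the call of probe 1 was lost without TIA1 2 or either HuR array.

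Probe 2 of ARHGEF7 (chr13:111947421-111947480) was dimmer relative to background and followed another order. It read -4.57 and -4.49 on the HuR arrays, -5.45 and -5.09 on the TIA1 arrays, and -5.84 and -5.95 on the TIAR arrays, and was not well above background on any TIA1 or TIAR array. In the main processing the signal was at least 2.24-fold lower with TIAR than with HuR. The bound counts the dim line, array by array, at its measured signal or at that array's weakest signal well above background, whichever is higher. The fitted difference had a limma adjusted p of 0.0054. With TIA1 the signal was at least 1.67-fold lower and was not called. Over the alternatives the fitted log2 value of probe 2 with TIAR ranged from -1.64 to -0.36, and the call was lost with normexp, with the authors' values, with the methods' t-test after its adjustment and when either HuR array was left out.

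ARHGEF4, or Asef, is an exchange factor that binds the tumour suppressor APC. Its probe 2 (chr2:131802947-131803006, plus strand) read -4.09 and -4.69 on the GFP arrays, -4.54 and -4.32 on the HuR arrays, -4.51 and -4.99 on the TIA1 arrays, and -6.17 and -6.23 on the TIAR arrays, where it was not well above background. Both TIAR arrays lay below the 6 others, with a gap of 1.19. In the main processing the signal was at least 2.43-fold lower with TIAR than with HuR, by the bound used for ARHGEF7. The fitted difference had a limma adjusted p of 0.0049. With TIA1 the log2 fold change was -0.32 (limma adjusted p = 0.27). Probe 3 of ARHGEF4, well above background on all arrays, differed from HuR by -0.66 (limma adjusted p = 0.015) with TIAR and -0.35 (adjusted p = 0.042) with TIA1, both under 2-fold. Over the alternatives the fitted value of probe 2 with TIAR ranged from -2.02 to -0.34.

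ARHGEF12, or LARG, links G protein-coupled receptors to RhoA and was lower with TIAR. Its probe (chr11:120359849-120359908, plus strand) read -2.63 and -2.68 on the GFP arrays, -2.44 and -2.34 on the HuR arrays, -2.95 and -3.43 on the TIA1 arrays, and -3.64 and -3.33 on the TIAR arrays. The log2 fold change against HuR was -1.09 (SE 0.14, limma adjusted p = 0.013) for TIAR and -0.80 (0.19, adjusted p = 0.033) for TIA1. All 4 TIA1 and TIAR arrays were below the GFP and HuR arrays, and TIA1 missed the 2-fold threshold. The TIAR call was also lost without TIAR 1.

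**Figure D2:**
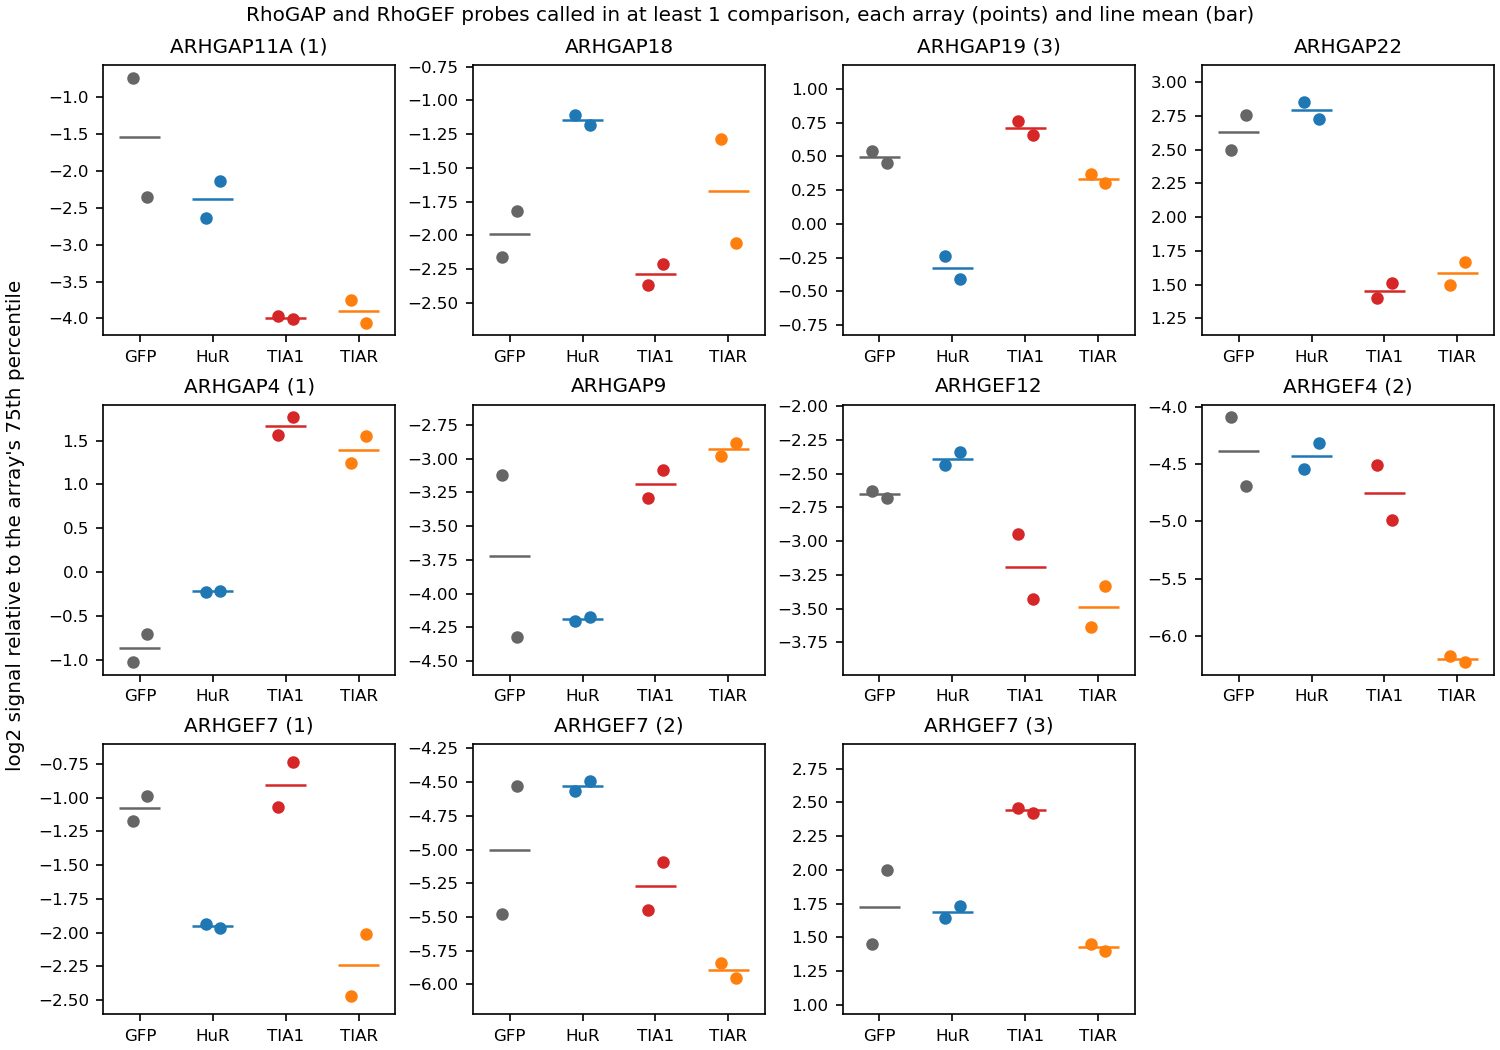
Signal of 11 RhoGAP and RhoGEF probes called in at least 1 comparison, on the log2 scale relative to the array's 75th percentile, for each array (points) and line mean (bars). On all 4 TIA1 and TIAR arrays, ARHGAP4 probe 1 is higher than on all 4 GFP and HuR arrays. ARHGAP11A probe 1 and ARHGAP22 are lower there. ARHGEF7 probes 1 and 3 are higher on the TIA1 arrays than on the TIAR arrays, and on probe 1 the TIA1 arrays overlap the GFP arrays.

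Against HuR, an unadjusted limma p under 0.05 was reached by 41.2% of the members with TIA1 and 38.8% with TIAR. Over all tested probes these shares were higher, 52.4% and 45.4%. Among these members, a further 21 probes with TIA1 and 18 with TIAR had an adjusted p under 0.05 but a change under 2-fold. ARHGEF16, an exchange factor of the ephexin type, was the clearest of those with higher values, at 0.63 and 0.50 on the HuR arrays, 0.81 and 0.86 on the GFP arrays, 1.42 and 1.46 on the TIA1 arrays and 1.28 and 1.30 on the TIAR arrays. It was named for these values and not by the rule. Its log2 fold change against HuR was 0.87 (limma adjusted p = 0.0065) for TIA1 and 0.73 (adjusted p = 0.014) for TIAR. The 7 tested probes of the ephexin-type genes had a median log2 fold change of 0.56 with TIA1 and 0.51 with TIAR, none called, beside 0.09 and 0.06 over all tested probes. Against GFP the medians of these genes were 0.10 for TIA1, 0.14 for TIAR and -0.27 for HuR. Over all tested probes those medians were 0.01, -0.02 and -0.04. ARHGEF37, also named for its values, had log2 fold changes of -0.98 (limma adjusted p = 0.0075) and -0.83 (adjusted p = 0.015). In the 7 tested probes of the CdGAP group the median was 0.38 with TIA1 and 0.24 with TIAR, none called. The FilGAP group, which holds ARHGAP22, had medians of -0.86 and -0.13 over 3 probes. Both medians are the values of ARHGAP24 probe 2, which was not well above background on any TIA1 or TIAR array. That probe read -5.40 and -7.09 on the TIA1 arrays. ARHGAP24 probe 1 had log2 fold changes of -0.24 with TIA1 and -0.06 with TIAR.

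Several widely studied members showed no call in any comparison. ARHGAP1, a broad RhoGAP of most cells, read 2.60 and 2.68 on the HuR arrays and 2.60 to 2.78 on the TIA1 and TIAR arrays, while the GFP arrays, at 1.94 and 2.29, were below. ARHGEF2, a microtubule-bound RhoA exchange factor, had log2 fold changes against HuR of -0.16 and 0.11 with TIA1 and 0.23 and 0.34 with TIAR on its 2 probes. ARHGEF1 and ARHGEF11, which like ARHGEF12 carry the RGS domain that binds G proteins, lay between 0.22 and 0.34 with TIA1 and between 0.05 and 0.30 with TIAR. ARHGEF6, or alpha-PIX, had log2 fold changes of -0.53 (limma adjusted p = 0.059) and -0.33 (adjusted p = 0.24). ARHGAP35, a GAP for RhoA that restrains actomyosin contraction, ranged from -0.19 to 0.29 over its 2 probes and both comparisons. ARHGAP29, known from endothelial cells, ranged from -0.71 to 0.42, with adjusted p between 0.09 and 0.31.

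Against GFP, 0 of 84 probes were called for TIA1, 0 of 85 for TIAR and 0 of 86 for HuR in limma, and of all tested probes 0% were called in each of the 3 comparisons. An unadjusted p under 0.05 was reached by 10, 12 and 6 members, or 11.9%, 14.1% and 6.98%, where 21.3%, 16.1% and 16.9% of all tested probes did. The GFP arrays were at least 2-fold apart in 19 of the 83 members well above background on both, or 22.9%, beside 15.7% of all such probes, and GFP 1 was the higher in 18 of the 19 (21.7% of the members and 14.1% of all). The replicates of HuR and TIA1 were at least 2-fold apart in 0 members and those of TIAR in 1 (0.455%, 1.13% and 1.46% of all probes). The largest of these GFP differences was in ARHGAP21 probe 2, which read -0.71 on GFP 1, -4.32 on GFP 2 and -4.26 to -3.27 on the 6 others. ARHGEF1 probe 1 likewise read 1.10 on GFP 1 and -1.83 to -1.26 on all others.

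**Figure D3:**
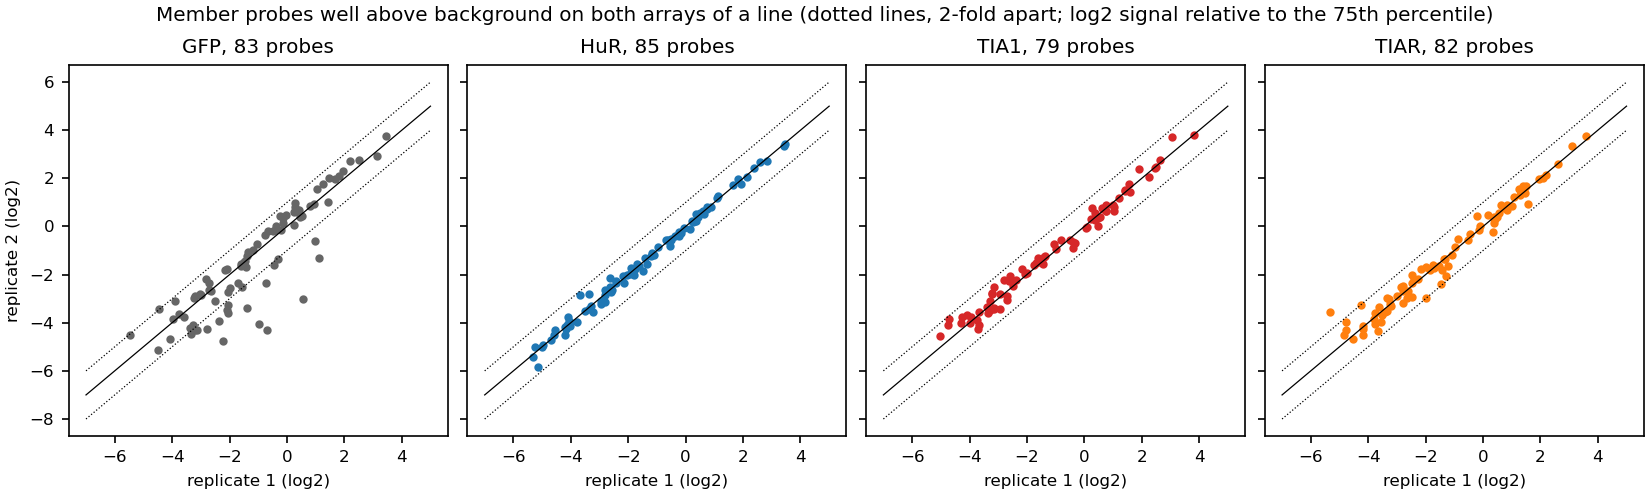
Log2 signal relative to the array's 75th percentile on replicate 1 (horizontal) and replicate 2 (vertical) of each line, for member probes well above background on both arrays. Points beyond the dotted lines are at least 2-fold apart, which holds for 19 of 83 probes in GFP, 0 of 85 in HuR, 0 of 79 in TIA1 and 1 of 82 in TIAR.

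For the genes whose 4 TIA1 and TIAR arrays all lay on one side of the others, the direction against GFP is fixed by that choice, and the fitted values are given for their size. ARHGAP4 probe 1 had a log2 fold change against GFP of 2.53 (SE 0.23, limma adjusted p = 0.095) for TIA1 and 2.27 (0.24, adjusted p = 0.16) for TIAR. ARHGAP22 had -1.18 (0.21, adjusted p = 0.11) and -1.05 (0.22, adjusted p = 0.21), and ARHGAP11A probe 1 had -2.45 (0.60, adjusted p = 0.15) and -2.36 (0.61, adjusted p = 0.24). Without GFP 1, limma called 4 members for TIA1 and 7 for TIAR, beside 11.5% and 6.76% of all tested probes, and ARHGAP4, ARHGAP9, ARHGAP11A and ARHGAP22 were called in both. In that fit ARHGAP4 had 2.38 (adjusted p = 0.019) and 2.11 (adjusted p = 0.031), and ARHGAP11A had -1.64 (adjusted p = 0.022) and -1.55 (adjusted p = 0.044). Without GFP 2 instead, 20 members were called for TIA1, 21 for TIAR and 24 for HuR, of which 19, 19 and 22 were lower than on GFP 1, and 23.6%, 21.3% and 24.3% of all tested probes were called. ARHGAP9 depended on which GFP array was left out, with 1.14 and 1.39 without GFP 1 (limma adjusted p = 0.039 in both) and -0.07 (adjusted p = 0.79) and 0.19 (adjusted p = 0.44) without GFP 2. ARHGAP22 with TIAR was also not called without GFP 2, at -0.92, whereas ARHGAP4 and ARHGAP11A were called in both comparisons whichever GFP array was left out. A line left with 1 array was assumed to vary like the others, and with all 8 arrays in one fit the calls were 5, 7 and 0, beside 9.1%, 5.91% and 3.97% of all tested probes.

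Between HuR and GFP, 0 of all 28868 tested probes were called, so the lack of calls there is not particular to the genes called against HuR. In ARHGAP19 probe 3, ARHGAP18 and ARHGEF7 probe 1, the log2 fold change of HuR against GFP was -0.82, 0.84 and -0.88, with adjusted p from limma of 0.20 to 0.22. The TIA1 values against GFP for the same probes were 0.21, -0.31 and 0.18, with adjusted p of 0.49 to 0.68. For these 3 probes the fitted difference between TIA1 and HuR was larger than that between TIA1 and GFP. They were called against HuR and had HuR values away from GFP, so this order is close to fixed by the choice. The order was the same in ARHGAP9 and ARHGAP22. It was the reverse in ARHGAP4 probe 1 (1.88 against HuR and 2.53 against GFP) and ARHGAP11A probe 1 (-1.60 and -2.45).

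Without regard to the test, the arrays of a line could be set against the others over the 86 probes. All 4 TIA1 and TIAR arrays lay above the 4 GFP and HuR arrays in 9 members, or 10.5% beside 12.9% of all probes, and below them in 8, or 9.3% beside 9.45%. Besides the called genes these included ARHGAP42 probe 1 and ARHGEF16 above and ARHGAP44 probe 1 and ARHGEF37 below. Both HuR arrays lay above the 6 others in 9 members and below in 13, or 10.5% and 15.1% beside 11.4% and 15.6% of all probes. For GFP the counts were 7 above and 10 below, or 8.14% and 11.6% beside 9.76% and 10.8%. For TIA1 they were 9 and 8, or 10.5% and 9.3% beside 12.6% and 9.26%, and for TIAR 8 and 7, or 9.3% and 8.14% beside 6.51% and 5.53%. ARHGAP5 and ARHGEF2 gave 5 of the 8 members in which both TIAR arrays were the highest.

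Between the TIA lines, 1 of 82 tested probes was called, or 1.22%, where 2.35% of all 28059 tested probes were called (1.25% higher and 1.10% lower). It was ARHGEF7 probe 3, lower with TIAR than with TIA1 by a log2 fold change of -1.01 (SE 0.11, limma adjusted p = 0.033). Probe 1 of the same gene had a larger fitted difference with a larger error, -1.33 (0.22, adjusted p = 0.055). The median absolute log2 fold change was 0.21 over the members and 0.22 over all tested probes, against 0.33 and above in the comparisons with HuR. The call of ARHGEF7 was kept in 3 of 13 alternatives. It was lost with the replicate block, quantile normalization, the authors' values, no filter on dim probes, all 8 arrays in one fit and the methods' t-test after its adjustment, and when any of the 4 arrays was left out, with values between -1.04 and -0.99 throughout.

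Probes of the same gene did not always change alike, so whether the log2 fold changes of a gene's probes differed from each other was tested with limma. In the TIA1 comparison 4 of 42 probe pairs were called, or 9.52% where 8.51% of all 11551 pairs were, and in the TIAR comparison 5 of 42, or 11.9% where 4.84% of 11652 pairs were. Between TIAR and TIA1, 0 of 38 pairs were called, where 0.198% of 11112 pairs were. The genes included ARHGAP4 and ARHGEF7 with TIA1 and ARHGAP4, ARHGAP5, ARHGAP11A, ARHGEF4 and ARHGEF7 with TIAR. The sequences show where in each RNA the disagreeing signals were read. Given are the first 30 of the 60 bases of a probe as the array design lists them, with its position on hg19, and runs of at least 4 T, which stand for the U-rich stretches that TIA proteins are known to bind, are in capitals.
ARHGAP4 probe 1, chrX:153172835-153172894, minus strand: acccttgctcagatgcctggcagggctggg
ARHGAP4 probe 2, chrX:153172969-153173028, minus strand: atgcccgctccacatcctgcctgcccctca
ARHGAP5 probe 3, chr14:32624171-32624230, plus strand: aacaggctggatttggacaaaaagcaaatc
ARHGAP5 probe 4, chr14:32628828-32628887, plus strand: aagttcttgaactaTTTTaccagctttaac
ARHGAP11A probe 1, chr15:32928084-32928143, plus strand: gcccagatgttgatgaaaagttaccaaaga
ARHGAP11A probe 2, chr15:32931232-32931291, plus strand: ctctctggaaaatgacttgactaaggctct
ARHGEF7 probe 1, chr13:111932964-111933023, plus strand: aacgaaggtcacgtctgtgggaaaccccac
ARHGEF7 probe 2, chr13:111947421-111947480, plus strand: gttgcattgtattgtacagtatgcatatta
ARHGEF7 probe 3, chr13:111957595-111957654, plus strand: tgagagcaactcTTTTTaaaaacctgccct
Over the whole 60 bases, read on the listed strand, a run of TTTT was found in 32 of the 103 member probes, or 31.1%, in 2 of the 12 called ones, and in 31.4% of all probes. Without an annotation of this build, the probes were not assigned to exons or untranslated regions.

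The ARHGAP4 probes lie 134 bases apart between their starts, and the probe nearer the end of the RNA, probe 1, changed the most. Probe 2 read 3.45 and 3.43 on the HuR arrays, 3.83 and 3.81 on the TIA1 arrays and 3.60 and 3.78 on the TIAR arrays, a log2 fold change of 0.38 (limma adjusted p = 0.033) and 0.25 (adjusted p = 0.16). The change differed between the probes by 1.50 (SE 0.16, limma adjusted p = 0.015) with TIA1 and by 1.36 (0.15, adjusted p = 0.023) with TIAR. The design lists both probes under the same RefSeq transcripts but under different Ensembl transcripts.

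In ARHGAP11A the probes are listed under different RefSeq transcripts, and the signal of probe 1 fell more than that of probe 2. Probe 2 read -1.42 and -1.33 on the HuR arrays, -2.17 and -1.78 on the TIA1 arrays, and -1.42 and -1.82 on the TIAR arrays. Its log2 fold change was -0.60 (limma adjusted p = 0.047) with TIA1 and -0.25 (adjusted p = 0.33) with TIAR, and the difference between the probes, 1.28 (standard error 0.20), was called with TIAR (adjusted p = 0.038). With TIA1 the difference was 1.00 (standard error 0.24, limma adjusted p = 0.06) and was not called.

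In ARHGEF7, probes 2 and 3 are listed under RefSeq transcripts that do not overlap. With TIA1 the change of probe 2 differed from that of probe 1 by -1.79 (SE 0.15, limma adjusted p = 0.011) and from that of probe 3 by 1.50 in size (0.19, adjusted p = 0.019). With TIAR the difference between probes 2 and 3 was 1.11 (0.15, adjusted p = 0.030). Since probe 2 was not well above background on the TIA1 and TIAR arrays, these fitted differences are no more than descriptions of its signal. The same holds for ARHGEF4, where the TIAR arrays of probe 2 were near background and the difference from probe 3 was 1.11 (0.16, adjusted p = 0.034 from limma).

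ARHGAP5, a RhoGAP closely related to ARHGAP35, had 4 probes along chromosome 14, none called. Probe 3 read 0.21 and 0.21 on the HuR arrays, -0.19 and -0.16 on the GFP arrays, 0.47 and 0.36 on the TIA1 arrays and 0.64 and 0.91 on the TIAR arrays. Probe 4, which starts 4657 bases further along, read -0.63 and -0.56 on the HuR arrays, -0.38 and 0.03 on the GFP arrays, -0.51 and -0.57 on the TIA1 arrays and -1.07 and -1.20 on the TIAR arrays. In TIAR-expressing cells the log2 fold changes of probes 1 to 4 against HuR were 0.73, 0.68, 0.57 and -0.54, so that the last probe went against the others. The difference between probes 3 and 4 was 1.11 (SE 0.19, limma adjusted p = 0.047). Without either HuR array, 0 of the 42 pairs were called in both comparisons.

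**Figure D4:**
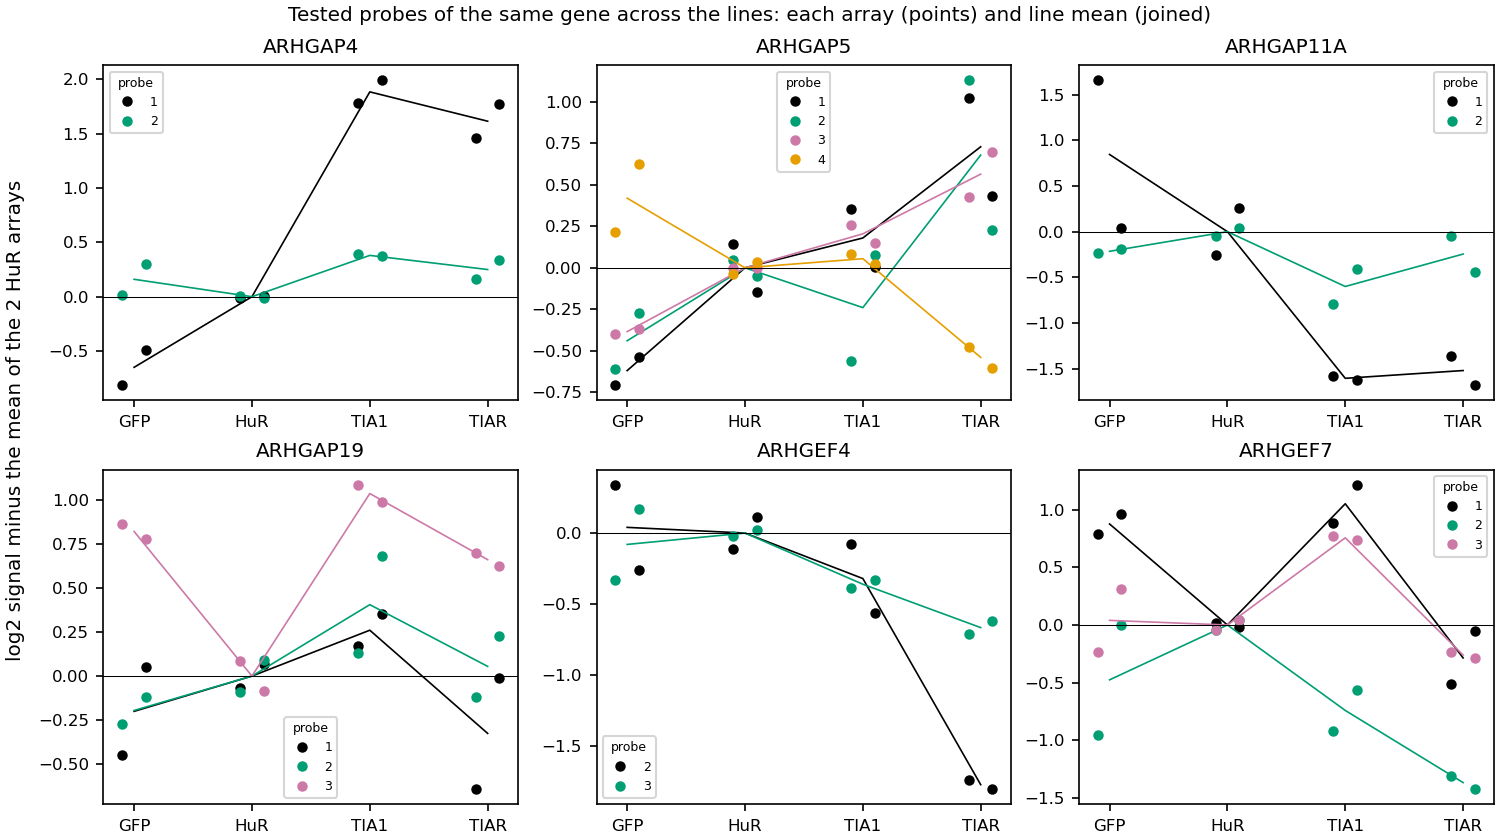
Log2 signal of the tested probes of 6 genes, minus the mean of the HuR arrays for the same probe, on each array (points) and as line means (joined); probes are numbered by rising position on hg19. In ARHGAP4 probe 1 rises by 1.88 and 1.61 on the TIA1 and TIAR arrays while probe 2 stays within 0.38 of HuR, and in ARHGAP5 probe 4 falls with TIAR while the other probes lie above HuR.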

How the data were processed

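The authors deposited, for each of the 8 one-colour arrays, the output of Feature Extraction 10.7.3.1, in which the intensity of each spot had been corrected for background and for trends across the array. They also deposited a series table of log2 values, normalized with the TIAR arrays apart from the others, with the method not given in the sources used here, and it served as an alternative. The labels' hybridization protocol names a rat array, while the design text and the files are of the human 8x60K design. All arrays lay on 1 slide.

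Here these processed signals were log2-transformed and set relative to the 75th percentile of their array, after spots flagged as outliers were removed and repeated spots averaged. Each comparison used its 4 arrays in limma 3.58.1 (lmFit and eBayes, R 4.3.3) with Benjamini-Hochberg adjustment over all tested probes, and the scripts were tested on simulated data. Tables were made with pandas 2.3.3 and plots with matplotlib 3.10.9.

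The members and the lists were chosen with earlier results of these data known. Full values were given for the 6 called probes with the largest change in each direction of the HuR comparisons and 4 in the others, for genes whose probes disagreed, and for 12 anchor genes that include ARHGAP1, ARHGAP35, ARHGEF1 and ARHGEF2. The test of probe pairs, and the alternatives for it, were added after values were seen. RefSeq-style names stood for 92 member probes, and 91 of these were found in the RefSeq table (GRCh38.p14), used for names only. Replicate numbers did not pair the arrays. The alternatives were normexp background correction (offset 50), quantile normalization, the authors' values and other filters on dim probes. Others were all 8 arrays in one fit, a replicate block, the methods' t-test and leaving out each array. That t-test is paired by replicate number, although no pairing by these numbers was seen. With so few replicates its adjusted form can call little. Both its unadjusted and its adjusted form are counted among the alternatives. Some results, counted above but not named, are not reported here.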

Additional observations from a re-analysis of the deposited data

Results flagged for a closer look

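A difference between the TIA lines passed the direct test in ARHGEF7 probe 3, which read 2.46 and 2.42 on the TIA1 arrays and 1.45 and 1.40 on the TIAR arrays. Its log2 fold change of TIAR against TIA1 was -1.01 (SE 0.11, limma adjusted p = 0.033). The call was kept in 3 of 13 alternatives and was lost with the replicate block and without any of the 4 arrays, with values between -1.04 and -0.99.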

How the results depend on the processing

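The 16 called changes of member probes were recomputed 206 times under the alternatives. They kept their call in 121, kept their direction without it in 85, and reversed in 0. ARHGAP4 probe 1 with TIA1 was called in 12 of 13 alternatives, between 1.78 and 1.98, and ARHGAP22 and ARHGAP18 with TIA1 in 11 of 13 each.

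The counts of called members moved more, and so did the shares of all probes called. With normexp they were 3 for TIA1 and 2 for TIAR against HuR (7.67% and 5.53% of all probes), with the authors' values 4 and 2 (5.89% and 4.33%), with the methods' t-test at its unadjusted threshold 2 and 3, and after its Benjamini-Hochberg adjustment 0 and 0. Leaving out an array gave 6 to 12 for TIA1 and 1 to 10 for TIAR against HuR, and without HuR replicate 1 or 2 the TIAR count was 1 (2.68% and 2.31% of all probes). Against GFP the ranges were 0 to 20 for TIA1, 0 to 21 for TIAR and 0 to 24 for HuR. All 8 arrays in one fit gave 5 and 7 calls for TIA1 and TIAR against GFP, and the methods' t-test 2 and 2. Between TIAR and TIA1 the count of 1 became 2 with probes well above background on all 4 arrays and with the methods' t-test, and 0 after its adjustment, with quantile normalization, the authors' values or no filter on dim probes, and without any array.

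Probe pairs called were 2 for TIA1 and 2 for TIAR with normexp, 2 for TIAR with the authors' values, and 0 to 7 in both without an array, with 7 for TIA1 without TIA1 replicate 1 and 0 without either HuR replicate.

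No pairing of the arrays by replicate number was seen, as correlations of same-numbered deviations lay between -0.07 and 0.14. With only 1 difference per line, these correlations cannot exclude that the arrays were prepared in pairs. The replicate block left 8 and 7 calls against HuR and 0 against GFP, and took the 1 call between TIAR and TIA1 to 0. The causes of these shifts were not tested. Counts given in this section without the share of all probes or pairs called are not read as results about the members. Probes near background, such as ARHGEF4 and ARHGEF7 probe 2 in TIAR-expressing cells, give bounds only, and these hold for the main processing.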
